A study of Mus musculus with 9 samples.

Results

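The receptor genes through which myeloid growth factors act were followed in splenic type 2 dendritic cells (cDC2), namely *Flt3*, *Kit*, *Csf1r*, *Csf2ra*, *Csf2rb*, *Csf2rb2* and *Csf3r*. They were taken by symbol, and they are 7 of the 24054 genes listed in the count files. The data are 9 mRNA sequencing libraries in 3 groups of 3. All mice were C57BL/6 and carried *Clec9a*-Cre and Rosa-tdTomato, both homozygous. Cre sits in the *Clec9a* locus, which encodes DNGR-1, and leaves a permanent TOMATO (TOM) label in cells that have expressed it, such as those descending from committed DC progenitors. TOM+ cDC2 and TOM- DC2 came from pooled spleens of mice at postnatal day 8, called young here. The third group is TOM+ cDC2 from adult mice, 9 weeks old for replicate 1 and 8 weeks old for the other two. After enrichment for CD11c, live, single, autofluorescence-negative MHCII+ CD11c+ CD11b+ cells were sorted by TOMATO. No cells were treated. The young groups differ in Cre history, whereas young and adult TOM+ cDC2 differ in age. Replicates are numbered by the order in which they were deposited, and nothing states that the libraries of a group came from separate animals. The p-values therefore set differences against the spread between libraries, which may not be that between animals. In the main test this spread was estimated over all 9 libraries together. The number in the deposited names (81, 91 and 92 in both young groups) pairs the young libraries, as given with the methods.

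FLT3, KIT and CSF1R are receptor tyrosine kinases of the same class, with an extracellular part of immunoglobulin-like domains and a split kinase domain. They bind FLT3 ligand, stem cell factor, and CSF-1 or IL-34. FLT3 carries the main signal for the production of dendritic cells, KIT marks progenitors and mast cells, and CSF1R marks monocytes and macrophages. The other members belong to the cytokine receptor family and have no kinase of their own. The GM-CSF receptor joins the α-chain *Csf2ra* to the common β-chain *Csf2rb*, which also serves IL-3 and IL-5, and these chains signal through JAK2 and STAT5. *Csf2rb2* encodes a second β-chain, found in mice, that serves IL-3. *Csf3r* encodes the G-CSF receptor, best known from neutrophils.

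Both β-chain genes lie next to each other on chromosome 15 (GRCm38.p6), *Csf2rb2* at chr15:78282507-78305721 and *Csf2rb* at chr15:78325800-78351001, with 20.1 kb between them. Their sequences are shown because they set how reads can be assigned. In the GENCODE transcripts, 892 of the 4715 windows of 50 bases in *Csf2rb* (18.9%), the length of a read, were found letter for letter in *Csf2rb2*, and the longest identical run was 242 bases. The stretch of 120 coding bases around the end of that run lies in exon 14 of 14 of both genes, at chr15:78348759-78348878 on the plus strand for *Csf2rb* and chr15:78284570-78284689 on the minus strand for *Csf2rb2* (GRCm38). Only 2 of these bases differ, and they are in capitals.
Csf2rb: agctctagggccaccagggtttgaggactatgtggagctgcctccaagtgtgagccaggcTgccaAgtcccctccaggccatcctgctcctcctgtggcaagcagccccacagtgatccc
Csf2rb2: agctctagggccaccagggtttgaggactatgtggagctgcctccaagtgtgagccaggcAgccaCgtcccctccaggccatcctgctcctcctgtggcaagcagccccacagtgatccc

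Reads inside such runs fit both genes. STAR, the aligner behind the deposited counts, counts only reads with a single best place, whereas RSEM divides the others between genes. RSEM's expected counts were 1.25 times the STAR counts for *Csf2rb* (1.22 to 1.26 over the 9 libraries) and 1.25 times for *Csf2rb2* (1.24 to 1.27). For *Flt3*, *Kit* and *Csf1r* the same ratio was 0.957 to 0.979. *Csf2ra* (0.832 to 0.887) and *Csf3r* (1.05 to 1.25) lay further from 1 than these kinases, *Csf2ra* below it in every library.

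*Kit* (chr5:75574987-75656722, GRCm38.p6) lies 71.7 Mb from *Flt3* (chr5:147330741-147400489) on chromosome 5. RSEM pooled a pair of *Kit* transcripts that differ in the coding part by an insert of 12 bases (4 codons) in exon 9 of 21. As placed here it lies at chr5:75639143-75639154 on the plus strand (GRCm38). The insert is shown in capitals between 30 bases of either side, because these are the KIT isoforms known to differ just outside the membrane. The bases AAAG open the capitals and also follow them, so the transcript sequences alone do not fix which copy belongs to the insert.
Kit with insert: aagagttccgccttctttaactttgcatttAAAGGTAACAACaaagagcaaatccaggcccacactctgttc
Kit without insert: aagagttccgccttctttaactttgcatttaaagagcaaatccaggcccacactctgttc

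The mean transcript length that RSEM gave for *Kit*, which moves with the mix of its transcripts, was 5169.9 to 5171.4 bases in young TOM+ cDC2, 5169.2 to 5170.7 in young TOM- DC2 and 5168.4 to 5170.9 in adult TOM+ cDC2. These ranges overlap. For *Csf2rb2* (4599.3 to 4663.3, 4602.5 to 4665.4 and 4595.1 to 4739.0 bases) and *Csf3r* (3826.0 to 3913.4, 3876.0 to 3914.5 and 3884.8 to 3907.0 bases) they overlap as well. *Flt3*, *Csf1r*, *Csf2ra* and *Csf2rb* are listed with 1 length in all libraries.

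Reads counted on genes numbered 12783252 to 22809401 per library. Each member passed the filter of an average count of 1, and all but *Csf3r* had at least 690 reads in every library. *Csf3r* had 137 to 273. Markers of the sorted type were high in every library: the summed level of 10 cDC2 markers, among them *Itgax*, *Itgam*, *H2-Ab1*, *Cd74* and *Sirpa*, was 58499 to 65743 TPM in the young libraries and 92385 to 95718 in the adult ones. *Cd74* and *H2-Ab1* made up 97.0 to 98.1% of this sum, and the other 8 genes summed to 1531 to 1852 TPM in the young and 1765 to 2133 in the adult libraries. TPM, the transcript abundance that RSEM gives, is scaled by transcript length and to a fixed total per library, so these values were used to set genes side by side. Replicate 1 of young TOM- DC2 stood apart in neutrophil markers (38.5 TPM summed, against 0.38 to 1.99 in the other 8 libraries) and erythroid markers (454 TPM, against 1.17 to 37.0). In sorted bulk cells, a change in the share of a cell type and a change per cell cannot be told apart.

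Of the receptors, *Csf2ra* had the highest mean level in each group, with 352 ± 36.4 TPM in young TOM+ cDC2, 328 ± 31.3 in young TOM- DC2 and 344 ± 57.0 in adult TOM+ cDC2 (SD, n = 3). The order below it differed between the groups. In young TOM+ cDC2 it ran *Csf1r* (241 ± 14.7 TPM), *Flt3* (190 ± 18.0), *Csf2rb* (178 ± 0.744) and *Kit* (169 ± 20.7), and the libraries of the last 3 overlapped. In adult TOM+ cDC2 *Kit* (313 ± 29.7) stood second, its libraries overlapping those of *Csf2ra* and of *Flt3* (256 ± 48.9), and *Csf1r* (169 ± 12.7) and *Csf2rb* (125 ± 2.11) followed without overlap. In young TOM- DC2 the order was *Kit* at 224 ± 32.4, *Csf1r* at 206 ± 20.9, *Flt3* at 177 ± 20.1 and *Csf2rb* at 161 ± 9.91 TPM, where *Kit* and *Csf1r* stood between the means of the other groups and *Flt3* below both. *Csf2rb2* (34.1 ± 4.32, 29.2 ± 4.42 and 27.4 ± 1.80 TPM) and *Csf3r* (4.17 ± 0.615, 4.81 ± 0.660 and 9.23 ± 1.14 TPM) came last in all groups.

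**Figure D1:**
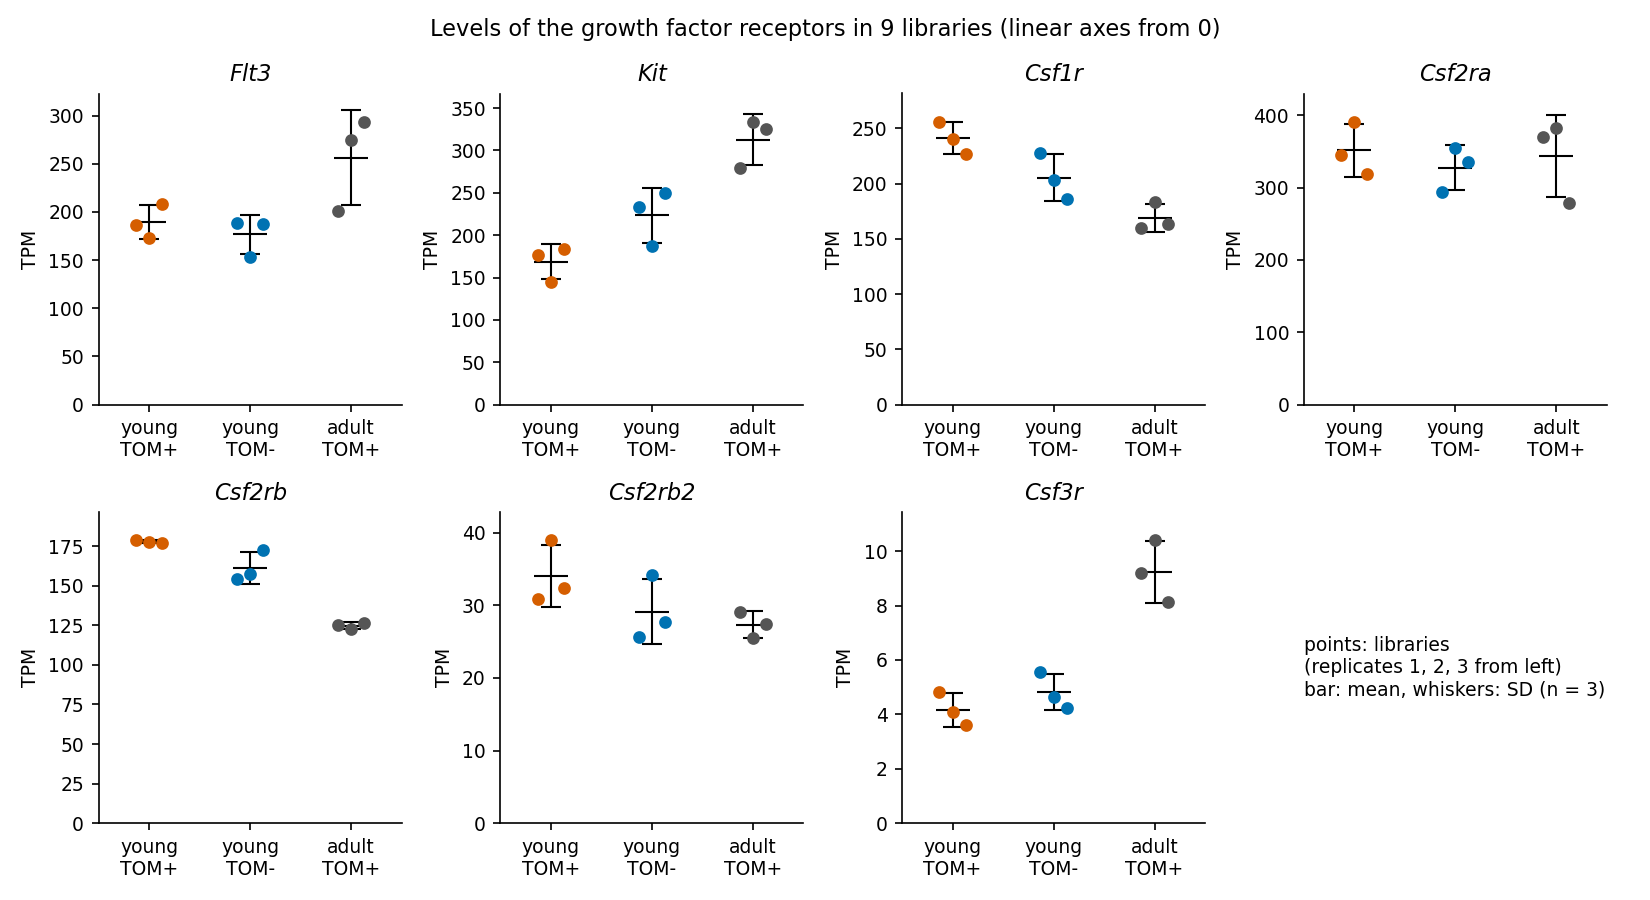
Level of each receptor gene (TPM, linear axes from 0) in the 9 libraries, 1 point a library, with the mean and SD of each group. *Kit*, *Flt3* and *Csf3r* sit highest in adult TOM+ cDC2, *Csf1r* and *Csf2rb* sit lowest there, and *Csf2ra* sits between 278 and 391 TPM in all groups.

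To ask how age relates to these receptors, TOM+ cDC2 from young mice were compared with TOM+ cDC2 from adult mice. *Kit*, *Flt3* and *Csf3r* were lower in young cells, *Csf1r* and *Csf2rb* were higher, and *Csf2ra* and *Csf2rb2* did not pass the test. Differences were tested on STAR counts of 14452 genes with edgeR's quasi-likelihood test and Benjamini-Hochberg adjustment, and log2 fold changes (log2FC) are from that fit. A gene passed at an adjusted p (padj) under 0.05 and was called when its log2FC was also beyond 1 in either direction. Of the 7 members, 3 were lower in young cells at this padj, against 19.5% of all genes tested, and 2 were higher, against 21% of all genes. *Kit* and *Csf3r* were called, against 12.8% of all genes. Normalized counts of 5 members did not overlap between the groups, against 51.1% of all genes. The 5 of 7 members stand against a background in which about as many genes separated by age as did not.

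Among the kinases, *Kit* was measured at 177, 145 and 184 TPM in the 3 libraries of young TOM+ cDC2 and at 279, 334 and 326 TPM in adults. Every adult library lay above every young one. *Kit* was 2.03-fold higher in adults (young minus adult log2FC −1.02 ± 0.12 SE, edgeR padj = 3.66e-05). This log2FC lies at the threshold of 1: it was beyond 1 in 11 of 16 alternative fits and ranged from −1.13 to −0.82, with padj never above 0.00057.

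*Flt3* was measured at 187, 173 and 209 TPM in young TOM+ cDC2 and at 201, 275 and 294 TPM in adults, so that adult replicate 1 lay within the young range on this scale. Normalized counts of the groups did not overlap. The gene was 1.48-fold higher in adults (log2FC −0.57 ± 0.13 SE, edgeR padj = 0.00402). *Csf1r* (chromosome 18) went the other way, from 256, 241 and 227 TPM in young TOM+ cDC2 to 160, 183 and 164 TPM in adults. It was 1.30-fold higher in young cells (log2FC 0.38 ± 0.09 SE, edgeR padj = 0.00428).

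Of the chains of the GM-CSF receptor, *Csf2rb* passed the test and *Csf2ra* did not. Their ratio within a library overlapped between these groups (exact two-sided permutation p = 0.2). *Csf2ra* (chr19:61217191-61228461, GRCm38.p6) was measured at 345, 391 and 319 TPM in young TOM+ cDC2 and at 370, 383 and 278 TPM in adults, with a log2FC of −0.16 ± 0.15 SE (edgeR padj = 0.423). The libraries of both groups overlapped. *Csf2rb* was measured at 179, 178 and 177 TPM in young TOM+ cDC2 and at 125, 123 and 127 TPM in adults. The groups did not overlap, and the gene was 1.28-fold higher in young cells (log2FC 0.35 ± 0.09 SE, edgeR padj = 0.00547). *Csf2rb2* was at 30.8, 39.0 and 32.4 TPM in young TOM+ cDC2 and at 29.1, 25.5 and 27.5 TPM in adults, with a log2FC of 0.17 ± 0.14 SE (edgeR padj = 0.346).

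The largest fold among the members was that of the least abundant. *Csf3r* (chr4:126023441-126044975, GRCm38.p6) was measured at 4.82, 4.08 and 3.60 TPM in young TOM+ cDC2 and at 9.18, 10.4 and 8.12 TPM in adults, without overlap. It was 2.42-fold higher in adults (log2FC −1.28 ± 0.16 SE, edgeR padj = 5.10e-05). The 10 neutrophil markers found had a summed level of 1.75 to 1.99 TPM in young TOM+ cDC2 and 0.38 to 0.81 in adults, where *Csf3r* was highest. Of these 10, 6 had at most 3 reads in each young TOM+ library and 8 in each adult library. The part of neutrophils in the level of *Csf3r* was not tested.

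**Figure D2:**
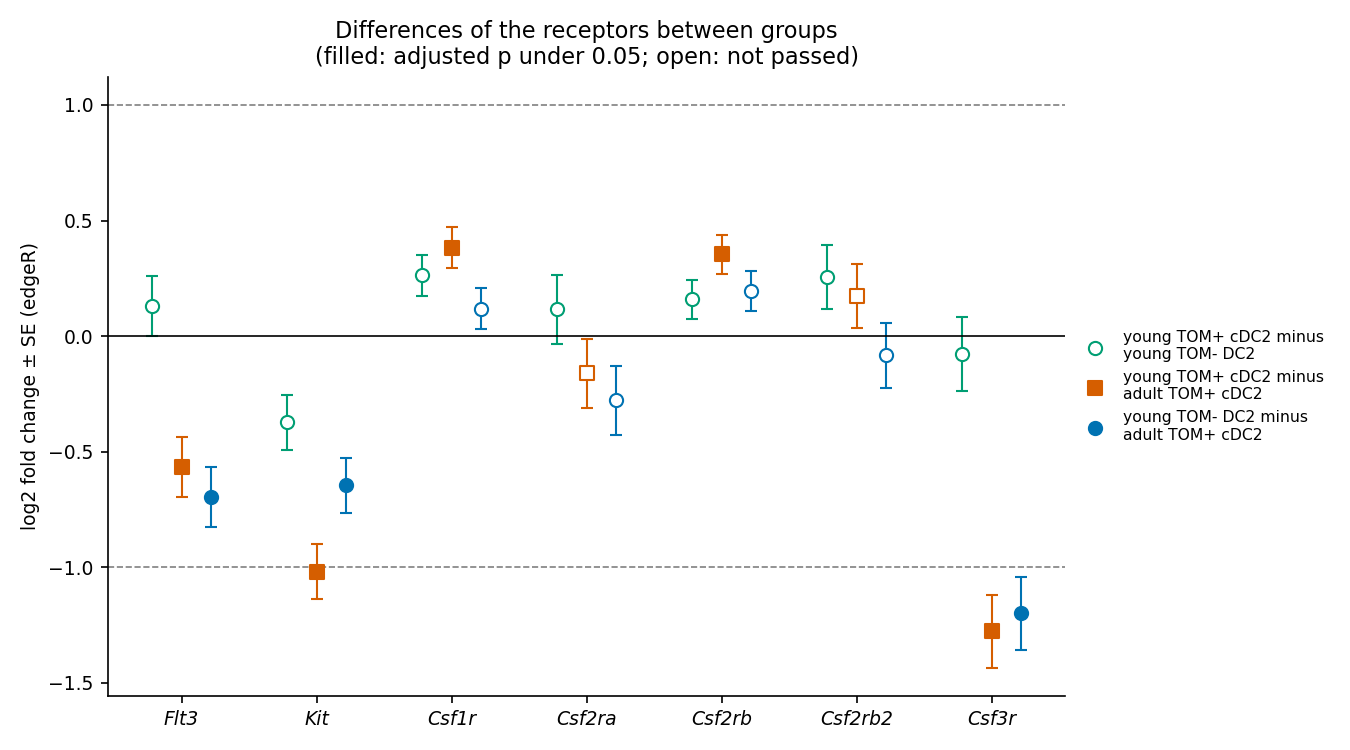
log2FC (edgeR, with SE) of each receptor gene in the 3 comparisons, with dashed lines at a log2FC of 1 in either direction; filled symbols passed an adjusted p of 0.05. *Kit* (−1.02 and −0.65), *Flt3* (−0.57 and −0.70) and *Csf3r* (−1.28 and −1.20) lie below 0 in both comparisons of young with adult cells, and all symbols for the comparison of the young groups are open. The fit shown leaves out the pairing of the young libraries, with which *Kit* passed between the young groups (edgeR padj = 0.0171).

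Young TOM- DC2 were also set against adult TOM+ cDC2, a comparison that shares the adult libraries with the previous one and mixes age with Cre history. *Flt3*, *Kit* and *Csf3r* were lower in young cells, and the other 4 members did not pass. The 3 lower members compare with 16.9% of all genes tested, and 0 members were higher, against 19.4% of all genes. *Csf3r* was the only member called, against 11.3% of all genes, and normalized counts of 4 members did not overlap, against 47.6%.

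In young TOM- DC2, *Flt3* was measured at 189, 154 and 188 TPM, below all 3 adult libraries (log2FC −0.70 ± 0.13 SE, edgeR padj = 0.00122). *Kit* was measured at 233, 187 and 250 TPM, also below all of them, and was 1.56-fold higher in adults (log2FC −0.65 ± 0.12 SE, edgeR padj = 0.00116). *Csf3r* was at 5.54, 4.65 and 4.25 TPM and 2.30-fold higher in adults (log2FC −1.20 ± 0.16 SE, edgeR padj = 9.73e-05). Its log2FC was beyond 1 in 13 of 16 alternative fits. The highest young value of *Csf3r* is from replicate 1, the library with neutrophil and erythroid transcripts. Without that library the log2FC was −1.26 for *Csf3r*, −0.70 for *Flt3* and −0.63 for *Kit*, and all 3 passed edgeR's test.

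*Csf1r* was measured at 228, 203 and 186 TPM in young TOM- DC2 (log2FC 0.12 ± 0.09 SE, edgeR padj = 0.313), *Csf2rb* at 154, 157 and 173 TPM (log2FC 0.20 ± 0.09 SE, edgeR padj = 0.0922), *Csf2ra* at 293, 355 and 335 TPM (log2FC −0.28 ± 0.15 SE, edgeR padj = 0.168) and *Csf2rb2* at 25.7, 34.1 and 27.7 TPM (log2FC −0.08 ± 0.14 SE, edgeR padj = 0.674). On the TPM scale, the libraries of *Csf1r* and *Csf2rb* lay above all adult ones. These calls depended on how libraries were scaled. With library totals in place of TMM, *Csf1r* (log2FC 0.34, edgeR padj = 0.00805) and *Csf2rb* (log2FC 0.41, edgeR padj = 0.00101) passed in this comparison, under a scaling that moved the median of all genes by 0.22 in the same direction. Without replicate 1, *Csf2rb* passed at a log2FC of 0.27 (edgeR padj = 0.0295), and without adult replicate 3, *Csf2ra* passed at −0.43 (edgeR padj = 0.0292).

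Next, the 2 groups of young mice were compared with each other, which addresses whether Cre history goes along with different receptor levels at the same age. No member passed edgeR's test without the pairing of the young libraries, where 0.125% of all genes were higher and 1.47% lower in TOM+ cDC2. Before adjustment, 2 members were under 0.05 in edgeR's test, *Kit* and *Csf1r*, against 9.38% of all genes. These were also the 2 members whose normalized counts did not overlap, against 16.6% of all genes. No member was called, against 1.18% of all genes, and DESeq2 gave 0 members as well.

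*Kit* was lower in TOM+ cDC2 (177, 145 and 184 TPM) than in TOM- DC2 (233, 187 and 250 TPM), with a log2FC of −0.37 ± 0.12 SE (edgeR padj = 0.222). Libraries that carry the same number gave TOM- to TOM+ ratios of 1.32, 1.29 and 1.36. With this number as a replicate block, *Kit* passed at a log2FC of −0.37 ± 0.08 SE (edgeR padj = 0.0171). It was then 1 of 7 members, where 2.3% of all genes were lower and 0.498% higher in TOM+ cDC2. *Csf1r* was higher in TOM+ cDC2 in 3 of 3 pairs (TOM- to TOM+ ratios 0.889, 0.844 and 0.821) and did not pass with the block (log2FC 0.26 ± 0.08 SE, edgeR padj = 0.104).

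For the remaining members the values without the block were a log2FC of 0.13 ± 0.13 SE for *Flt3* (edgeR padj = 0.885), 0.12 ± 0.15 for *Csf2ra* (edgeR padj = 0.926), 0.16 ± 0.08 for *Csf2rb* (edgeR padj = 0.642), 0.26 ± 0.14 for *Csf2rb2* (edgeR padj = 0.647) and −0.08 ± 0.16 for *Csf3r* (edgeR padj = 0.960). *Csf2rb2* was lower in TOM- DC2 in 3 of 3 pairs and *Csf3r* higher in 3 of 3. Neither passed with the block. Without replicate 1 of TOM- DC2, *Kit* was at a log2FC of −0.38 (edgeR padj = 0.307) and 0 members passed.

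*Kit* is also carried by other cells, so their markers are given beside it. ILC3 markers other than *Kit* moved with *Kit* between the young groups: their summed level was 3.22 to 4.22 TPM in TOM+ cDC2 and 28.1 to 36.1 TPM in TOM- DC2. In adults, where *Kit* was highest, this sum was 3.34 to 5.07 TPM. The part of these cells in the difference between the young groups was not tested.

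Mast cell and basophil genes *Mcpt8*, *Fcer1a*, *Ms4a2*, *Mcpt4*, *Cma1*, *Tpsb2* and *Prss34* were listed at 0 in all 9 libraries, and *Cpa3* reached at most 0.19 TPM. *Hdc*, histidine decarboxylase, was the only gene of this list above 0.34 TPM, and it moved with *Kit* (5.60 to 6.63 TPM in young TOM+ cDC2, 8.77 to 10.1 in young TOM- DC2 and 15.9 to 22.3 in adults). Progenitor markers, of which *Meis1*, *Cd34* and *Myb* were the most abundant, summed to 16.1 to 18.8, 20.5 to 25.5 and 9.04 to 14.9 TPM in the same order, lowest in adults. Macrophage markers, which accompany *Csf1r* in other cells, summed to 190 to 245, 302 to 367 and 110 to 161 TPM in the same order of groups. With age this sum went the same way as *Csf1r*, higher in young than in adult TOM+ cDC2. Between the young groups the sum was higher in TOM- DC2, whereas the mean of *Csf1r* was higher in TOM+ cDC2. The part of macrophages in the level of *Csf1r* was not tested. Monocyte markers summed to 56.3 to 87.7, 50.4 to 77.1 and 55.9 to 87.1 TPM and overlapped between all groups. Within that list, *Ccr2*, a chemokine receptor of monocytes, moved with *Csf1r* (37.6 ± 8.09, 23.1 ± 4.78 and 17.0 ± 0.182 TPM) and was higher in young than in adult TOM+ cDC2 (log2FC 1.01 ± 0.18 SE, edgeR padj = 0.000813), whereas *Cd14* was lower (−0.89 ± 0.30 SE, edgeR padj = 0.0307). The 10 cDC2 markers moved in both directions with age: 3 were higher and 7 lower in young than in adult TOM+ cDC2, against 21% and 19.5% of all genes. *Esam*, a surface marker of a cDC2 subset, moved with *Kit* with age (19.0 ± 6.99, 28.4 ± 8.26 and 80.0 ± 9.49 TPM in the same order of groups, log2FC −2.21 ± 0.21 SE between young and adult TOM+ cDC2, edgeR padj = 7.16e-06), and *Clec10a*, a lectin gene of the same list, went the other way (1.80 ± 0.22 SE, edgeR padj = 4.60e-05). Their part in the levels of the receptors was not tested. T cell (0.78 to 6.46 TPM), B cell (41.1 to 80.7), pDC (22.3 to 30.7) and cDC1 markers (132 to 187) summed to less than the cDC2 markers. This held in all 9 libraries also without *Cd74* and *H2-Ab1*, where the cDC2 sum was at least 1531 TPM. *Wdfy4* (116 to 170 TPM) made up most of the cDC1 sum and *Cd79b* (25.3 to 68.2) most of the B cell sum.

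**Figure D3:**
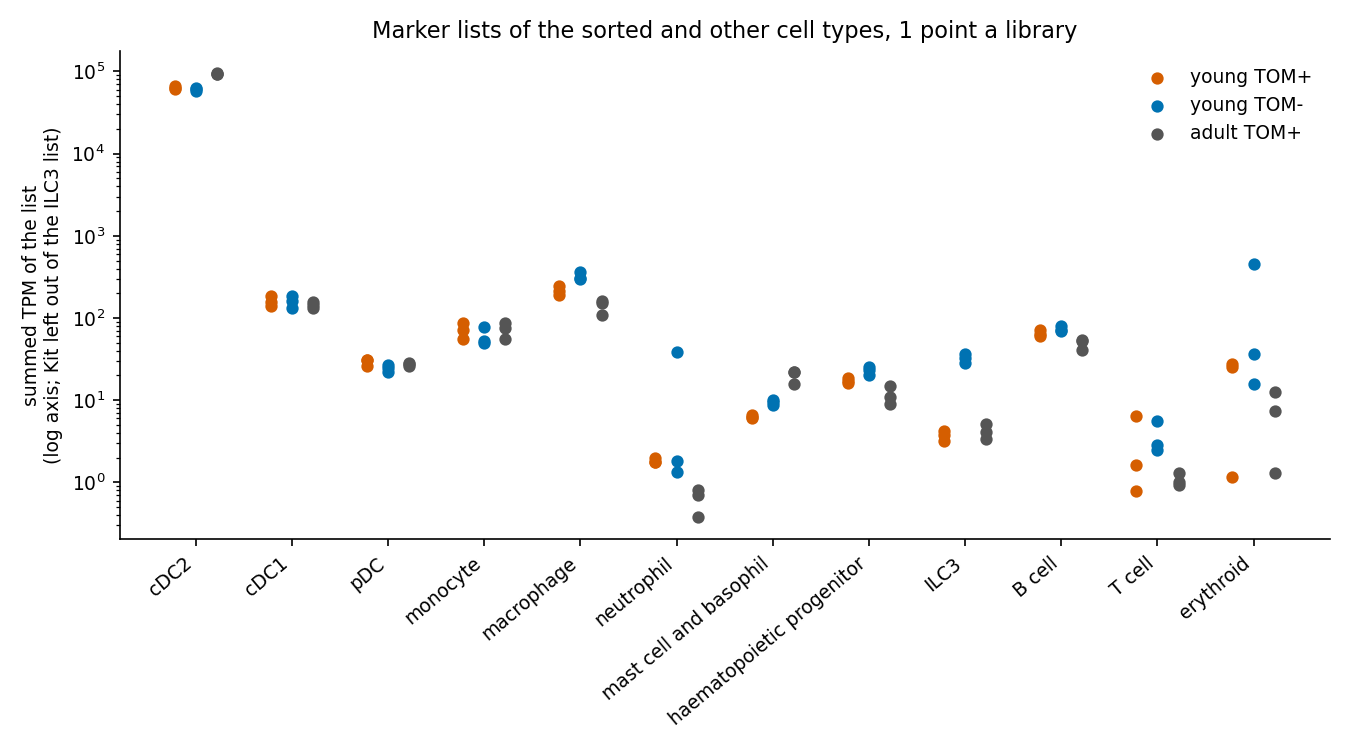
Summed TPM of the marker list of each cell type (log axis, *Kit* left out of the ILC3 list), 1 point a library. The cDC2 list lies at 58499 TPM or more in all libraries, the ILC3 list is raised only in young TOM- DC2 (28.1 to 36.1 TPM), and 1 library of that group is high in neutrophil (38.5 TPM) and erythroid (454 TPM) markers.

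Ratios of receptors within a library do not depend on how libraries are scaled. *Csf1r* to *Flt3* was 1.28 ± 0.170 in young TOM+ cDC2, 1.17 ± 0.169 in young TOM- DC2 and 0.673 ± 0.118 in adult TOM+ cDC2 (SD, n = 3). All young libraries, from 0.990 to 1.39, lay above all adult ones, from 0.557 to 0.794. *Csf2rb* to *Flt3* gave 0.944 ± 0.0890, 0.919 ± 0.104 and 0.50 ± 0.107, again without overlap between young and adult. In each of these 4 comparisons of young with adult the exact two-sided permutation test gave p = 0.1, the smallest that 3 libraries against 3 allow, and 0.3 after adjustment over the 12 ratio tests, so that no ratio could pass 0.05.

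The ratio of the GM-CSF receptor's α-chain to its β-chain, *Csf2ra* to *Csf2rb*, was 1.98 ± 0.205 in young TOM+ cDC2, 2.03 ± 0.195 in young TOM- DC2 and 2.76 ± 0.493 in adults. One adult library (2.20) lay within the young range, and the exact two-sided permutation p was 0.2 against either young group. *Csf2rb2* to *Csf2rb* was 0.191 ± 0.0246, 0.181 ± 0.0312 and 0.219 ± 0.0122, and all groups overlapped (exact permutation p of 0.3 or more). Between the young groups the 4 ratios gave exact permutation p of 0.5 or more.

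**Figure D4:**
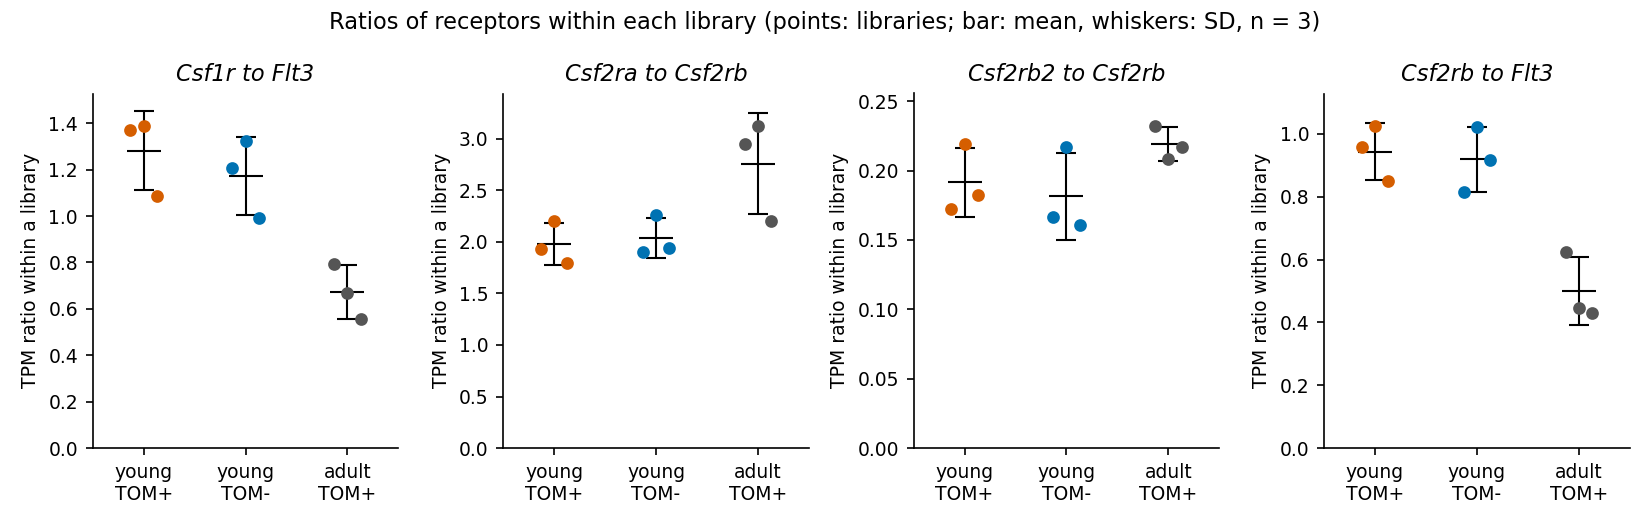
Ratio of the TPM of a pair of receptors in each of the 9 libraries, with the mean and SD of each group of 3. Both ratios to *Flt3* separate all 6 young libraries from the 3 adult ones, whereas the ratios among GM-CSF and IL-3 receptor chains overlap between ages.

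Across the 9 libraries, *Kit* went along with *Flt3* (Pearson r = 0.84 of log2 normalized counts, n = 9) and *Csf3r* (r = 0.86), and against *Csf1r* (r = −0.83) and *Csf2rb* (r = −0.82). These r describe 3 groups of 3 libraries that share an age split. The genes most like each member in the same measure, among 10111 others with an average count of at least 50, were *Tmem231*, *Ppp1r13b* and *Atg16l2* for *Kit* (r = 0.991 to 0.985), *Arhgap17*, *Mta3* and *Cyp4f16* for *Csf3r* (0.993 to 0.990), *Zfp821*, *Strada* and *Hcfc2* for *Flt3* (0.976 to 0.975), and *Pdap1*, *Cinp* and *Srrt* for *Csf2rb* (0.981 to 0.968). *Csf1r* was followed by *Arsb*, *Edem1* and *Capn2* (0.954 to 0.944), *Csf2rb2* by *Tmsb4x*, *Ppp1cb* and *BC028528* (0.952 to 0.943) and *Csf2ra* by *Ifi30*, *Snap29* and *Vapb* (0.945 to 0.934). An r above 0.95 was reached by 321 genes for *Csf3r* and 121 for *Kit*, and by 0 for *Csf2ra*.

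The ligands of these receptors other than *Flt3l* were scarce in the sorted cells. *Flt3l*, the FLT3 ligand, was at 14.2 ± 2.80, 15.7 ± 2.24 and 16.9 ± 1.17 TPM and passed no comparison (edgeR padj = 0.0532 between young and adult TOM+ cDC2). *Csf1* was at 0.870 ± 0.214, 0.797 ± 0.0231 and 1.12 ± 0.231 TPM, lower in young TOM- DC2 than in adults (log2FC −0.73 ± 0.25 SE, edgeR padj = 0.0376). *Kitl*, stem cell factor, averaged at most 0.237 TPM. *Csf2* (GM-CSF) and *Il5* were listed at 0 in all 9 libraries, and *Csf3*, *Il3* and *Il34* averaged at most 0.15 TPM in any group. *Il3ra*, the α-chain that joins the β-chains for IL-3, was at 11.7 ± 2.68, 12.1 ± 0.514 and 10.9 ± 2.22 TPM without a difference that passed, and *Il5ra* was listed near 0.

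Of 32 genes that carry the receptors' signals (kinases, adaptors, RAS, PI3K and STAT proteins), 14 were lower and 6 higher in young than in adult TOM+ cDC2, against 19.5% and 21% of all genes, and 12 did not pass. Their median log2FC was −0.27, beside 0.05 for all genes tested. The 4 called were all lower in young cells, among them the PI3K subunits *Pik3r1* (log2FC −1.34 ± 0.14 SE, edgeR padj = 1.93e-05) and *Pik3cb* (−1.06 ± 0.08) and the transcription factor *Stat3* (−1.05 ± 0.10). *Pik3r1* was at 40.4, 31.0 and 43.5 TPM in young TOM+ cDC2 and at 100.2, 72.7 and 87.8 TPM in adults, without overlap. *Jak2*, the kinase bound to the common β-chain, did not pass (−0.27 ± 0.12 SE, edgeR padj = 0.0970), and *Stat5a* (−0.37 ± 0.08) and *Stat5b* (−0.56 ± 0.11) were lower in young cells. In young TOM- DC2 against adults, 14 were lower and 4 higher, against 16.9% and 19.4% of all genes, with *Pik3r1* (−1.17 ± 0.14) and *Pik3cb* (−1.03 ± 0.08) among the 3 called. Between the young groups 0 of the 32 passed edgeR's test, with or without the replicate block.

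Negative regulators of the receptors numbered 21, of which 6 were lower and 4 higher in young than in adult TOM+ cDC2, beside the same 19.5% and 21% of all genes, with a median log2FC of −0.10. The adaptor *Dok2* was at 4.65, 6.88 and 6.48 TPM in young TOM+ cDC2 and at 0.08, 1.29 and 0.12 TPM in adults (log2FC 3.42 ± 0.57 SE, edgeR padj = 0.000458). *Cish*, a STAT5-induced inhibitor of cytokine signals, was at 13.4, 17.4 and 20.1 TPM in young TOM+ cDC2 and at 3.94, 4.60 and 3.40 TPM in adults (log2FC 1.99 ± 0.27 SE, edgeR padj = 0.000103). *Socs2*, of the same family and also STAT5-induced, went the other way, at 9.37, 9.30 and 7.56 TPM against 22.5, 21.9 and 42.6 TPM (log2FC −1.82 ± 0.23 SE, edgeR padj = 6.58e-05). Young TOM- DC2 against adults gave 6 lower and 4 higher (16.9% and 19.4% of all genes), with 3 called, *Dok2* (3.71 ± 0.56), *Cish* (2.19 ± 0.27) and *Socs2* (−1.38 ± 0.23). Between the young groups 0 of the 21 passed, with or without the block.

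Among 22 target genes of STAT5 and growth factors, a list that shares *Cish* and *Socs2* with the previous one, 7 were higher and 6 lower in young than in adult TOM+ cDC2 (21% and 19.5% of all genes), with a median log2FC of −0.04. Besides *Cish* and *Socs2*, the chemokine gene *Ccl17* (log2FC 2.91 ± 0.87 SE, edgeR padj = 0.0182) and *Id1* (2.12 ± 0.53 SE, edgeR padj = 0.00681) changed most, both at low levels of 4.87 ± 2.20 and 4.60 ± 1.96 TPM in young TOM+ cDC2. In young TOM- DC2 against adults, 6 were higher and 5 lower (19.4% and 16.9% of all genes), among them *Spry2* (3.22 ± 0.90) and *Id1* (1.94 ± 0.53). *Spry2* was near 0 in adults, at 0.0633 ± 0.0115 TPM.

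Of 20 transcription factors tested that act in receptor-bearing myeloid cells, 7 were higher and 7 lower in young than in adult TOM+ cDC2, against 21% and 19.5% of all genes. *Maf* (1.86 ± 0.48) was called higher, and *Bcl6* (−1.57 ± 0.19), *Egr2* (−1.34 ± 0.32) and *Irf8* (−1.10 ± 0.11) were called lower in young cells. Against adults, young TOM- DC2 showed 5 higher and 6 lower (19.4% and 16.9% of all genes), with *Maf* (2.84 ± 0.46), *Myb* (1.19 ± 0.29) and *Bcl6* (−1.63 ± 0.19) among the 4 called. Between the young groups, *Irf8* and *Ccnd2* were the only genes of any of these lists to pass without the replicate block, and they are named for that reason. *Irf8* was at 20.3, 26.5 and 24.2 TPM in TOM+ cDC2 and at 44.2, 39.1 and 41.3 TPM in TOM- DC2 (log2FC −0.77 ± 0.11 SE, edgeR padj = 0.00275), and at 47.1, 45.2 and 49.2 TPM in adults. *Ccnd2*, cyclin D2, was at 28.1, 30.9 and 28.8 against 38.6, 40.6 and 46.9 TPM (log2FC −0.49 ± 0.11 SE, edgeR padj = 0.0396). With the block, 4 of the 20 transcription factors passed between the young groups, 1 higher and 3 lower in TOM+ cDC2, and 2 of the 22 target genes, both lower, where 0.498% of all genes were higher and 2.3% lower. *Irf8* (log2FC −0.78 ± 0.10 SE, edgeR padj = 0.000437) and *Ccnd2* (−0.48 ± 0.08 SE, edgeR padj = 0.00377) were joined by *Runx1* (0.52 ± 0.12 SE, edgeR padj = 0.0286), *Id2* (−0.39 ± 0.06 SE, edgeR padj = 0.00430) and *Spry2* (−3.71 ± 0.90 SE, edgeR padj = 0.0495), the last with at most 1 read in every TOM+ library.

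**Figure D5:**
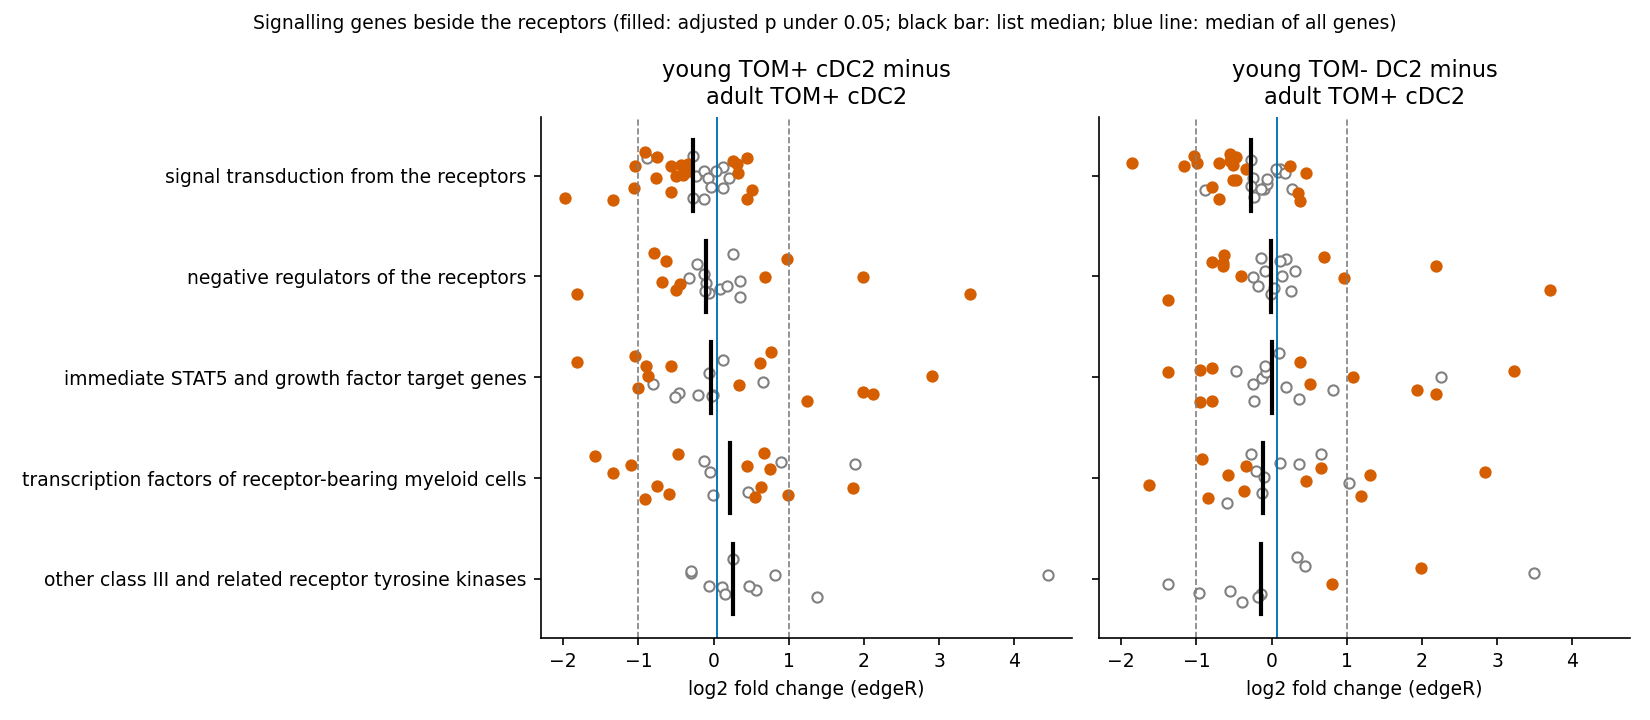
log2FC (edgeR) of the genes of 5 lists in both comparisons of young with adult cells, 1 point a gene, filled where the adjusted p was under 0.05, with the list median as a black bar and the median of all genes as a blue line. The median of the signal transduction list (−0.27 and −0.28) lies left of the median of all genes (0.05 and 0.07), and the other lists spread to both sides.

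The other class III and related receptor tyrosine kinases were low beside all members but *Csf3r*. Of 11 tested, *Axl* had the highest level, with 5.74 ± 0.460, 9.38 ± 1.43 and 4.91 ± 1.13 TPM, above the mean of *Csf3r* in both young groups, and 0 passed between young and adult TOM+ cDC2. In young TOM- DC2 against adults 2 were higher, of which *Mertk*, a receptor for apoptotic cells, was called (1.99 ± 0.47), at 1.98 ± 0.218 against 0.510 ± 0.464 TPM. Between the young groups 0 passed, and *Axl* passed with the replicate block, lower in TOM+ cDC2 (log2FC −0.68 ± 0.16 SE, edgeR padj = 0.0424).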

How the data were processed

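The libraries were made with a SMART-Seq v4 kit from sorted cells and read as single ends of 50 bases. As deposited, the counts are reads per gene from STAR on mm10 (column for both strands), before any normalization by the authors. The expected counts and the TPM were estimated by the authors with RSEM on RefSeq transcripts, 1 file a library, and FPKM in the same files were not used. Versions of STAR and RSEM are not given in the sources used here. Gene counts totalled 12783252 to 22809401 per library, and 26.1 to 31.6% of reads were not counted on a gene and were left out of library sizes. Among these were reads with more than 1 place in the genome (10.4 to 13.4%), reads outside genes (8.84 to 17.1%) and unmapped reads. Each strand column held about 50% of the counts, so sense and antisense reads were not separated.

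The 14452 genes whose mean count reached 1 were fitted with edgeR 4.0.16 in R 4.3.3 (TMM, quasi-likelihood, all 9 libraries sharing 1 spread, Benjamini-Hochberg over all genes), and calls needed a log2FC beyond 1 and an adjusted p under 0.05. Ratios of TPM were compared with exact permutation tests (scipy 1.17.1). The code was tested on simulated data. Alternatives were DESeq2 1.42.0, its size factors, library totals, 2 other filters, rounded expected counts, limma 3.58.1 on log2(TPM + 1) or log2(TPM + 0.1), fits of 2 groups, leaving out each library, and a replicate block. The number in the deposited names was taken to pair the young libraries, because same-numbered libraries deviated together from their group means (r = 0.76, 0.54 and 0.52 over 10112 genes). What the number stands for is not given. No pair of libraries within a group was a copy.

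The members and the gene lists were chosen with earlier results of these data known. Named are all members, ligands and partner chains, at most 4 called genes with the largest change per list and comparison, the 3 genes most like each member, and defining or most abundant markers. *Jak2*, *Stat5a*, *Stat5b*, *Irf8*, *Ccnd2*, *Runx1*, *Id2* and *Spry2* between the young groups, *Axl*, *Ccr2*, *Cd14*, *Esam* and *Clec10a* were named after their values were seen, and the lists were tried with the block after seeing the data. *Adgre1*, *Ly6g*, *Trac* and *Ighm* were not found under these symbols. Some genes that this rule names are not reported here.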

Additional observations from a re-analysis of the deposited data

How the results depend on the processing

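Of 336 alternative values of the members' log2FC, 314 kept their direction and their side of the threshold. Of 96 alternative counts, 89 stayed within 1.5 times the count reported, and all 96 alternative values of the ratios moved by less than the SD between libraries. With the replicate block, 1 member (*Kit*) passed between the young groups in place of 0, and 211 genes were called in place of 170. In the comparisons with adults, where the number does not pair the libraries (same-number r of 0.0079 to 0.18), the block gave 7 members for TOM+ and 5 for TOM- in place of 5 and 3. Young TOM- DC2 against adults also gave 5 members under library totals and both limma fits. Limma on log2(TPM + 1) called 1122 and 986 genes in place of 1853 and 1631 against adults. The share of calls that were higher in young cells was 46.5% and 57.6%, and 62.6% and 74.2% under library totals, which moved the median of all genes by 0.20 and 0.22. With limma on log2(TPM + 0.1) it was 57.4% and 70.3%.

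The sign turned for 3 members, none of which had passed. *Csf2ra* in young against adult TOM+ cDC2 (log2FC −0.16) came to 0.0415 under library totals, 0.0414 under limma on log2(TPM + 1) and 0.0415 with a pseudocount of 0.1. *Csf2rb2* in young TOM- DC2 against adults (−0.08) came to 0.136, 0.0804 and 0.0828 in the same order, and ranged from −0.24 to 0.0273 when 1 library was left out. *Csf3r* between the young groups ranged from −0.13 to 0.0259 in the same way. Between the young groups the log2 ratios of *Csf2ra* to *Csf2rb* (−0.12 to 0.0353), *Csf2rb2* to *Csf2rb* (−0.018 to 0.221) and *Csf2rb* to *Flt3* (−0.043 to 0.121) also took both signs when 1 library was left out. *Csf2rb2* in young against adult TOM+ cDC2 passed under library totals at 0.37 (edgeR padj = 0.0400). The causes were not tested. With 3 libraries a group, no exact permutation test could pass 0.05, and the 137 to 273 reads of *Csf3r* make it the least precisely measured member.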
